A study of Mus musculus with 309 samples.

Results

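The genes described here are 34 mouse genes that repair DNA or signal that it is damaged. They were taken as a list of symbols, and all 34 were present among the 55291 gene symbols of the estimated count table. The list holds 8 genes of homologous recombination, 9 of the Fanconi anaemia pathway (which unhooks DNA strands that are linked to each other), 6 of DNA end resection and unwinding, 5 of damage signalling, 5 of excision and mismatch repair, and Polq, a polymerase that joins broken ends.

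A double-strand break can be repaired without error by copying the sister DNA molecule. In this process the ends are cut back by the Mre11a, Rad50 and Nbn complex with Rbbp8, Exo1 and Blm, and Brca2, with its partner Palb2, loads the recombinase that searches for the matching sequence. Carboplatin links DNA strands, and cells that lack recombination or the Fanconi anaemia pathway are known to tolerate such links poorly. Many of these genes are transcribed mainly in cells that are copying their DNA, so their level in a tumour also follows the share of dividing cells.

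RNA from 309 mouse mammary tumours of 24 models was sequenced after enrichment for polyadenylated RNA. The untreated group had 64 tumours of 18 models, trametinib (an inhibitor of the kinase MEK) 65 of 22 models, erlotinib (an inhibitor of the EGF receptor kinase) 66 of 22, carboplatin with paclitaxel 66 of 22, and anti-PD1 + anti-CTLA4, antibodies to receptors that hold T cells back, 48 of 16. By name, the models are T11, T11-APOBEC and T12, KPB1-A and KPB1-B, KPB25L with KPB25L-UV and KPB25L-APOBEC, p53RB-624, p53RB-626 and p53RB-426, MMTV-PyMT and MMTV-Neu, C3-TAG, K14-TRT, E0771 and 4T1, and those known by number only: 9263, 2336, 2153, 2250, 2208, 2225 and 2224. Genotypes, mouse strains, ages, what drives each model, doses and times of collection were not given in the sources used here, nor which models share an origin. The tumours of a model were taken as its replicates, so a p-value measures the spread between these tumours.

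Library totals, in mega-counts (M), ran from 12.1 M to 226.2 M, with a median of 78.6 M. The lowest count of any of the 34 genes in any tumour was 16, so no gene was lost to depth. By group, the median total was lowest for erlotinib (34.3 M) and trametinib (39.3 M), then untreated (76.9 M), chemotherapy (103.4 M) and the antibodies (112.9 M). Epcam, which marks epithelial cells, was near 0 in the untreated tumours of 8 models: T12, T11-APOBEC, T11, K14-TRT, E0771 and the models p53RB-624, p53RB-626 and p53RB-426 had means of 0.330 to 3.15 CPM (counts scaled to the size of each library), against 273 or more in the other 10 models. In tissue pieces such as these, fewer cells of a type and less RNA per cell cannot be told apart. One untreated KPB1-B tumour stood apart from the other 5 of its group in 5 of the 34 genes. The counts of genes higher or lower with a treatment are given without it where it changes them. The comparisons of untreated models and with survival were not repeated without this tumour alone. Library numbers of treated and untreated tumours were often far apart, so each comparison was also made within pairs of groups whose numbers lie within 100 of each other.

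RefSeq promoter windows, which run from 250 bases before to 50 bases after a gene's start, were matched for 27 of the 34 genes. The letters TTTNNCGC on either strand, which match sites bound by E2F, the factor that turns on genes for DNA replication, were found in the window of 8 of these 27 genes (29.6%) and of 5.93% of 27025 genes. The 8 were Brca2, Bard1, Rad51c, Fancg, Brip1, Topbp1, Chek2 and Msh6. The letters CCAAT were in 59.3% of the 27 windows and in 41.1% of all, TTTGAA in 7.41% and 20.2%, and TTCGAA in 3.70% and 1.80%. A match is a description of the letters, not a site. The 60 bases around the match are printed for 4 genes of recombination, interstrand link repair and signalling whose match lies before the start in both RefSeq and GENCODE M21. They are given 5′ to 3′ on the gene's strand, with the match in capitals, from GRCm38.p6, the same assembly as mm10. They cover chr5:150522427-150522486 (Brca2, plus strand), chr1:71103148-71103207 (Bard1, minus strand), chr11:86201349-86201408 (Brip1, minus strand) and chr5:110839805-110839864 (Chek2, plus strand).
Brca2: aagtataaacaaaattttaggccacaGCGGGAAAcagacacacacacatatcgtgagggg
Bard1: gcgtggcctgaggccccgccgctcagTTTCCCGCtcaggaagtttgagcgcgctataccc
Brip1: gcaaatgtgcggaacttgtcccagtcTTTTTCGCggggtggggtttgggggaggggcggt
Chek2: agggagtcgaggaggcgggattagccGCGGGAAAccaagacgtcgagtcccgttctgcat
In these 60 bases Brca2 and Chek2 held the match on the opposite strand, read as GCGGGAAA, and Bard1 and Brip1 held it on the gene's own strand. Past the RefSeq start, Bard1 and Chek2 each held a further match on the gene's own strand. Topbp1 also has its match before both starts and is not printed.

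Untreated tumours were compared first, over the 16 models with at least 3 of them (62 tumours). Levels are CPM with libraries scaled by the trimmed mean of M values. They are compared between models and not between genes, since they are not divided by gene length. All 34 genes differed between models (edgeR quasi-likelihood test over 22779 genes, Benjamini-Hochberg adjusted p under 0.05), but so did 98.9% of all genes tested, so the count says nothing particular about repair genes. The ratio of the highest to the lowest model mean ran from 2.24-fold for Xrcc1, the scaffold of single-strand break repair, to 13.3-fold for Ercc1, which with Ercc4 forms the nuclease that cuts beside a bulky lesion or an interstrand link.

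Against the mean of the other 15 models, 27 of the 34 genes were higher in C3-TAG and 1 was lower, where 30.8% of all genes were higher and 17.0% lower. The median log2 difference of the 34 genes was 0.68 in C3-TAG, against 0.10 over all genes tested. KPB1-B had 20 higher and 4 lower (37.6% and 25.4% of all genes), K14-TRT 20 and 4 (36.2% and 24.7%), KPB1-A 17 and 3 (31.3% and 22.9%) and p53RB-624 16 and 3 (26.4% and 18.6%). At the other end, KPB25L and KPB25L-UV each had 23 lower and 0 higher (0 also at an unadjusted p under 0.05), where 15.1% and 16.5% of all genes were lower and 20.2% and 19.8% higher. MMTV-PyMT had 7 higher and 20 lower (35.7% and 25.1% of all genes), and MMTV-Neu 3 and 17 (34.4% and 25.3%).

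**Figure D1:**
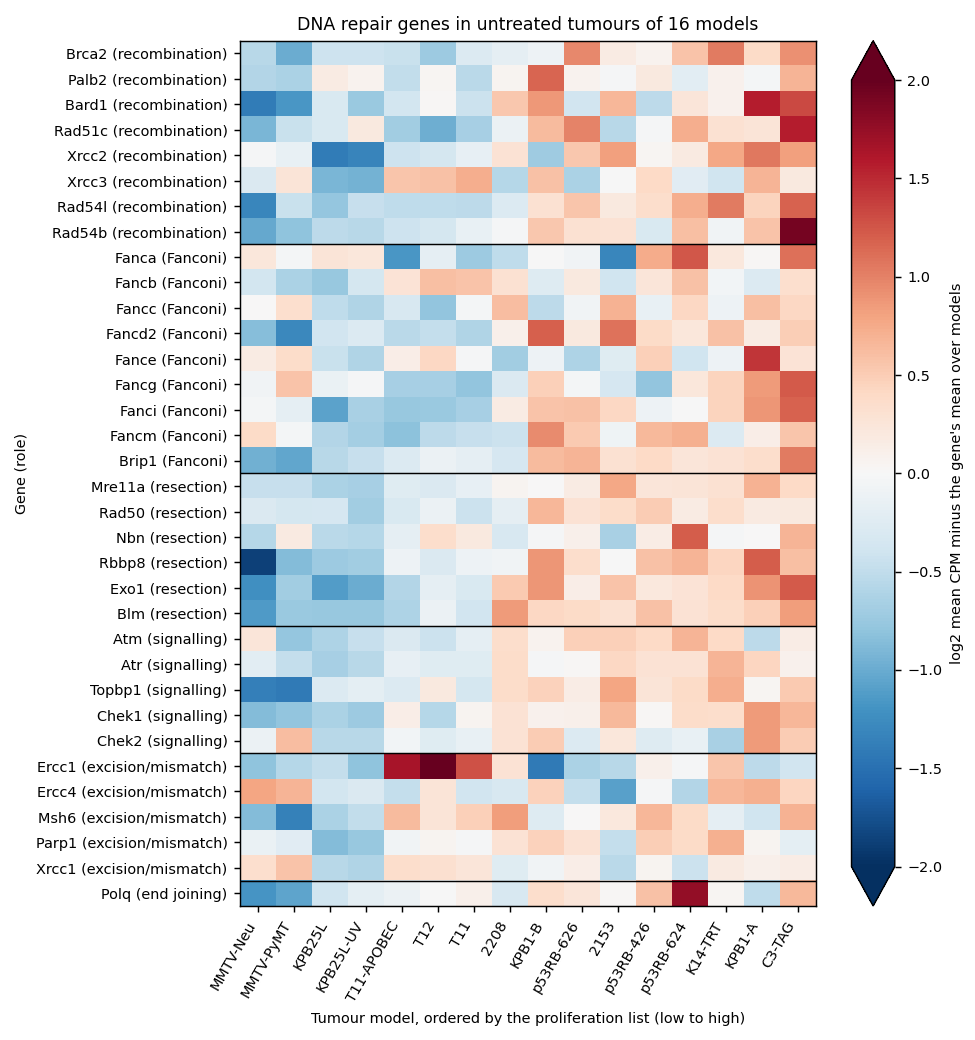
Levels of the 34 genes in untreated tumours. Each cell is the log2 of a model's mean CPM minus the mean of the gene over 16 models; models run from low to high on a proliferation list and genes are grouped by role. Most genes are blue in the 4 models at the left and red in C3-TAG, while Ercc1 is red in T11, T11-APOBEC and T12.

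The mean log2 CPM of a list of 30 proliferation genes ran from 5.31 in MMTV-Neu to 7.01 in C3-TAG, and was 6.54 in KPB1-B. Over the 16 model means, Pearson's r with that list was 0.91 for Rbbp8, Brip1, Rad54l, Exo1 and Blm, given as a description because all values share the same libraries. Within models, over 62 tumours, r was 0.87 for Exo1, the exonuclease that extends resected ends, and 0.75 for Fancd2. It was near 0 in both views for Ercc1 (0.08 and 0.02) and Ercc4 (-0.13 and -0.02). Xrcc1 (-0.08) and Fance (0.17) were also near 0 over model means.

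Brca2, which loads the recombinase, had means of 47.96 ± 17.2 CPM (SD, n = 9) in K14-TRT, 45.2 ± 11.2 (n = 6) in p53RB-626 and 43.7 ± 14.5 (n = 4) in C3-TAG. The lowest mean was 11.8 ± 2.76 in MMTV-PyMT (n = 3), with tumours at 8.87, 12.1 and 14.4. The 3 highest models did not differ beyond their spread, and the highest MMTV-PyMT tumour lay below the lowest tumour of each. Rad54b, a motor protein that helps strand exchange, was high in 1 model: C3-TAG tumours had 31.5, 46.8, 48.6 and 59.6 CPM, and the next highest model mean was 18.8 in p53RB-624. Exons of Fsbp overlap Rad54b by 2068 bases on the same strand, so strand cannot tell their reads apart there. Overlaps with genes on the opposite strand reach 1373 bases for Fancc, 1184 for Rad54l, 921 for Fanci and 920 for Fanca. The part of these overlaps in the levels was not tested. Bard1, the partner of Brca1, reached 43.8 in KPB1-A and 36.6 in C3-TAG, against 5.59 in MMTV-Neu.

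Among the Fanconi anaemia genes, Fancd2, which is marked with ubiquitin when strands are linked, was highest in KPB1-B at 34.1 ± 7.88 CPM (n = 6) and 2153 at 31.6 ± 5.90 (n = 3). It was lowest in MMTV-PyMT at 6.10 ± 2.004 and MMTV-Neu at 8.29 ± 0.998 (n = 3 each). Fance, a subunit of the core complex that places this mark, was at 56.2, 62.5 and 64.9 CPM in KPB1-A, while the next model mean was 31.5 in p53RB-426. Fanca, another core subunit, had its highest mean of 55.5 in p53RB-624 and its lowest of 9.59 in 2153. The models at the top thus differed between Fancd2, Fance and Fanca.

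In the resection group, Rbbp8, which starts end cutting, was at 11.02, 11.4 and 11.4 CPM in MMTV-Neu, against a median of 40.2 over models and a highest mean of 95.6 in KPB1-A. Nbn, the subunit that ties the nuclease complex to Atm, was highest in p53RB-624 at 56.0 CPM and lowest in 2153 at 15.5. Polq was at 51.1, 51.8 and 53.3 CPM in p53RB-624, and no other model mean passed 24.2 (C3-TAG). Every p53RB-624 tumour lay above every untreated tumour of the other models for Polq. Among the signalling kinases the range over models was 2.75-fold for Atm and 2.55-fold for Atr, the kinases that respond to breaks and to bare single strands, and 3.27-fold for Chek1, which Atr activates.

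Ercc1 (chr7:19344778-19356524, plus strand, mm10) had a pattern of its own among the 34 genes. T12 tumours had 148.9, 150.3 and 181.7 CPM, T11-APOBEC tumours 94.3, 101.8 and 105.7, and T11 tumours 70.7, 75.8, 79.1 and 83.8. These 3 groups did not overlap with each other, though Ercc1 did not pass the test between T11-APOBEC and T11. Only the highest of 9 K14-TRT tumours (70.6, mean 47.3 ± 11.6) came close to T11. The remaining 12 model means lay between 12.1 ± 2.10 in KPB1-B (n = 6) and 39.3 ± 2.27 in 2208 (n = 3). Going down this order, 2208, p53RB-426 (34.7 ± 4.07) and p53RB-624 (31.7 ± 0.311) were neighbours, and C3-TAG, KPB25L, KPB1-A, 2153, MMTV-PyMT and p53RB-626 had overlapping tumours between 17.9 and 33.7. In T12 the log2 difference from the other models was 2.43 (SE 0.110, adjusted p = 3.09e-25, edgeR). An exon of Cd3eap overlaps Ercc1 by 106 bases on the opposite strand, and whether the counting used strand is not given in the sources used here. Cd3eap stood at 42.9, 47.0 and 52.8 CPM in T11, T11-APOBEC and T12, against a median of 30.01 over the other 13 models.

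T11-APOBEC was compared with T11, and KPB25L-UV with KPB25L. Of the 34 genes, 0 passed between T11-APOBEC and T11 (3 at an unadjusted p under 0.05, edgeR), where 0.119% of all genes were higher and 0.474% lower (135 genes). Between KPB25L-UV and KPB25L it was again 0 (1 at an unadjusted p under 0.05), where 0.825% were higher and 0.347% lower (267 genes).

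Most of the repair genes were lower with trametinib. Of the 34 genes, 28 fell and 0 rose against untreated tumours in the 16 models that had both (48 against 54 tumours), where 21.0% of 18014 genes fell and 19.1% rose (edgeR with model as a factor, adjusted p under 0.05). None was higher at an unadjusted p under 0.05 either, and DESeq2 called 0 higher and 27 lower. The median log2 change of the 34 genes was -0.39, against -0.01 over all genes tested. All 8 recombination genes fell, as did 6 of 9 Fanconi anaemia genes, 5 of 6 resection genes, 4 of 5 signalling genes, 4 of 5 excision and mismatch genes, and Polq. The 6 that did not pass were Fancc (0.05), Fancg (0.03), Fance (-0.04), Nbn (-0.09), Atr (-0.07) and Ercc4 (0.01).

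Exo1 had the largest change. Its level had a lowest, median and highest value of 2.70, 14.4 and 82.9 CPM with trametinib and 5.66, 26.4 and 72.7 without. The groups overlapped across models, but Exo1 was lower in 15 of 16 models, with a log2 change of -0.72 (SE 0.097, adjusted p = 3.61e-09, edgeR). Polq went from 5.11, 16.3 and 53.3 CPM to 2.09, 10.5 and 30.8, and was lower in 14 of 16 models (-0.65, SE 0.089, edgeR adjusted p = 6.42e-09).

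Ercc1 had the smallest p of the 34 genes. It had 11.2, 21.3 and 87.1 CPM with trametinib and 10.1, 22.4 and 182 without, and was lower in 15 of 16 models (-0.39, SE 0.049, edgeR adjusted p = 5.26e-10). The difference was largest in T11-APOBEC and T12, the models where the gene was highest: T12 tumours fell to 81.1, 86.5 and 87.1 CPM and T11-APOBEC tumours to 46.2, 48.2 and 54.8, with no overlap with their untreated tumours. Within those models the log2 changes were -0.91 and -1.002 (edgeR adjusted p = 2.96e-05 and 4.39e-06). In T11 the treated tumours (54.5, 58.5 and 61.8) also lay below all untreated ones, but the change of -0.41 did not pass the test (edgeR adjusted p = 0.0548).

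Brca2 had 5.21, 14.6 and 55.0 CPM with trametinib and 8.87, 21.8 and 60.2 without, and was lower in 12 of 16 models (-0.40, SE 0.089, edgeR adjusted p = 0.000201). Fancd2 had 2.61, 11.1 and 33.3 against 3.79, 15.4 and 44.6, and was also lower in 12 of 16 (-0.49, SE 0.090, edgeR adjusted p = 5.32e-06). Chek1, the kinase that slows the cell cycle when replication stalls, had 3.93, 11.5 and 63.9 against 7.34, 20.6 and 46.2, and was lower in 15 of 16 (-0.52, SE 0.089, edgeR adjusted p = 1.53e-06). For all 3 the tumour ranges overlapped, and the shift lay in the medians and in the direction within models. Atm had 5.91, 21.9 and 70.2 against 11.6, 29.1 and 58.9 (-0.39, SE 0.105, edgeR adjusted p = 0.00158, lower in 12 of 16). Parp1, which senses nicks and is the target of PARP inhibitors, had 58.4, 98.8 and 225.6 against 64.5, 142 and 256 (-0.33, SE 0.047, edgeR adjusted p = 2.27e-08, lower in 13 of 16).

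**Figure D2:**
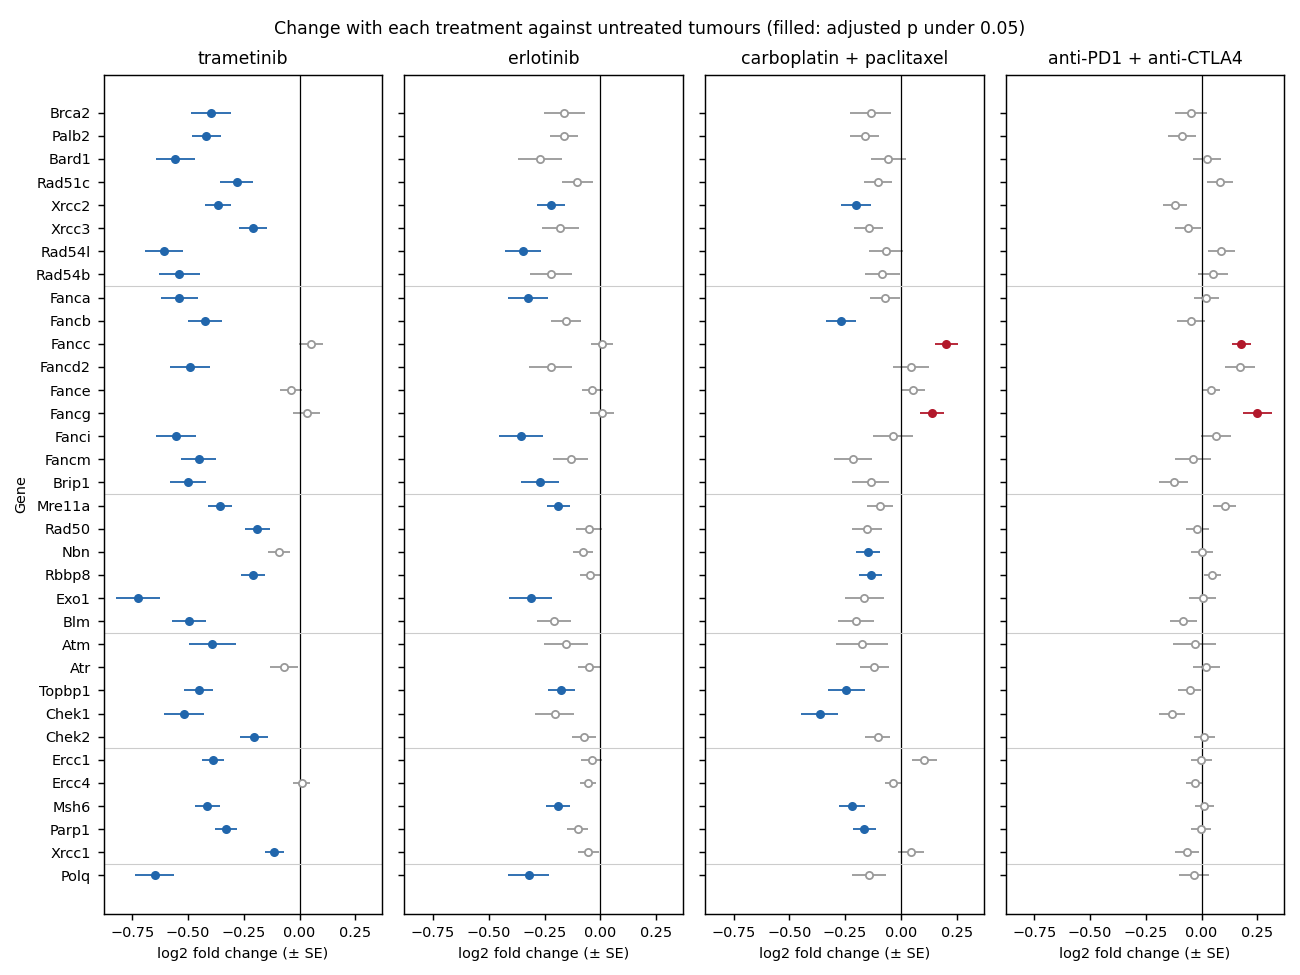
Log2 fold change of each gene against untreated tumours, with its SE, for 4 treatments. Filled points have an adjusted p under 0.05 (blue lower, red higher). With trametinib 28 genes are filled and lower; with the antibodies 2 are filled, Fancc and Fancg, both higher.

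Of 78 further repair genes, 44 fell and 3 rose with trametinib, with a median of -0.16. Dna2, a resection nuclease, fell in 16 of 16 models (-0.81, SE 0.082), and Lig1, the ligase of replication, by 0.52 on the log2 scale. Brca1 fell by 0.60 (SE 0.097) on the same scale. All 30 proliferation genes fell, with a median of -0.60, and Mki67, a marker of dividing cells, had a change of -0.82 (SE 0.101). Of 18 targets of p53, 5 rose and 0 fell, and Cdkn1a, the p53 target that blocks the cell cycle, had a change of 0.03 (edgeR adjusted p = 0.851). All 6 fibroblast markers rose (median 1.01) and all 5 endothelial markers fell (median -0.48). The part of these cell types and of proliferation in the repair genes was not tested beyond the fit below.

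With the level of the proliferation list added to the fit, 1 of the 34 genes stayed lower, Ercc1 (-0.41), and 2 were higher, Fancc and Fancg. Between groups with library numbers within 100 of each other (11 models), 23 were lower and 2 higher.

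The change with trametinib was not the same in every model. It differed between models for all 34 genes, where 82.3% of all genes did (edgeR interaction test, adjusted p under 0.05). Model 2208 had 27 genes lower and 0 higher (7.89% and 6.27% of 26323 genes), with a median log2 change of -1.29. T11 had 24 and 0 (8.35% and 7.13%), 2153 had 23 and 2 (11.8% and 11.1%), MMTV-Neu 19 and 3 (15.0% and 11.6%) and KPB1-B 19 and 1 (9.40% and 10.4%). KPB1-A, KPB25L and KPB25L-UV had 0 in either direction (0.657%, 0.137% and 1.11% of all genes lower, 0.220%, 0.163% and 1.11% higher), and at an unadjusted p under 0.05 edgeR had 3 lower, 5 lower and 1 higher there. A single gene was lower in each of C3-TAG (1.96% of all genes lower, 4.38% higher), p53RB-426 (1.80% and 0.631%), p53RB-624 (0.422% and 0.794%), p53RB-626 (2.73% and 1.46%) and T12 (1.28% and 0.642%), and 3 were in T11-APOBEC (1.95% and 2.75%). In MMTV-PyMT, 7 of the 34 genes were lower, which is 20.6% of them, near the 17.5% of all genes that were (16.3% were higher).

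In 2208, Exo1 fell from 32.4, 32.7 and 36.9 CPM to 4.09, 4.88 and 5.11 (-2.77, SE 0.2996, edgeR adjusted p = 4.69e-14). Fanci, the partner of Fancd2, fell there from 12.2, 12.2 and 14.3 to 1.89, 2.31 and 2.57 (-2.43, SE 0.316, edgeR adjusted p = 1.21e-10). Neither pair of groups overlapped, and Mki67 fell by 2.28 on the log2 scale in the same tumours. In T11, Atm had 12.4, 23.3, 29.4 and 38.1 CPM without and 5.91, 6.54 and 10.98 with trametinib (-1.72, SE 0.421, edgeR adjusted p = 0.00138), and Mki67 fell by 1.68. Chek2, the kinase that Atm activates, moved the other way in MMTV-Neu, from 13.5, 14.2 and 15.3 to 19.1, 22.1 and 32.4 (0.80, SE 0.203, edgeR adjusted p = 0.000951), where Mki67 fell by 2.19. In p53RB-426 the median of the 34 genes was 0.05 and the change of Mki67 was 0.10. The 5 models with 19 or more of the 34 genes lower were the 5 in which Mki67 fell most, by 1.24 to 2.28 on the log2 scale.

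**Figure D3:**
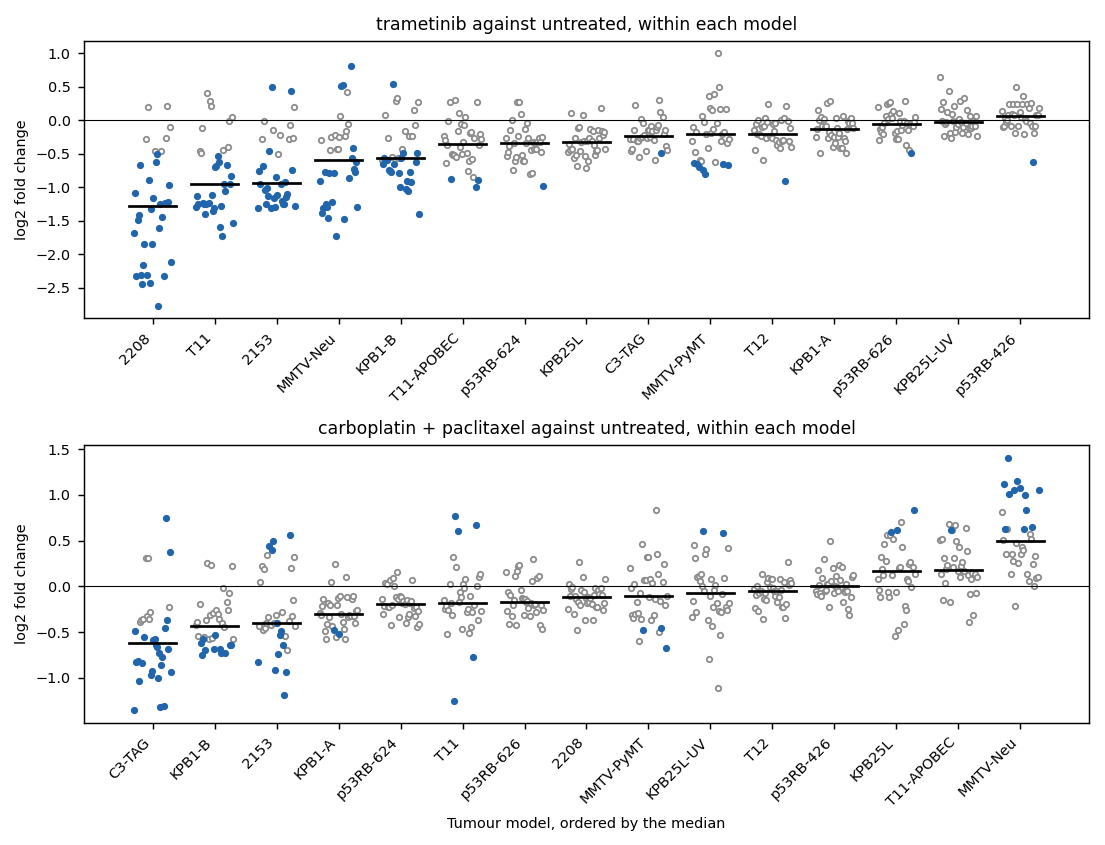
Log2 change of the 34 genes within each of 15 models, with trametinib (top) and carboplatin + paclitaxel (bottom). Each point is a gene, filled where the adjusted p is under 0.05, and the bar is the median. With trametinib the medians run from -1.29 in 2208 to 0.05 in p53RB-426, and with chemotherapy from -0.62 in C3-TAG to 0.49 in MMTV-Neu.

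**Figure D4:**
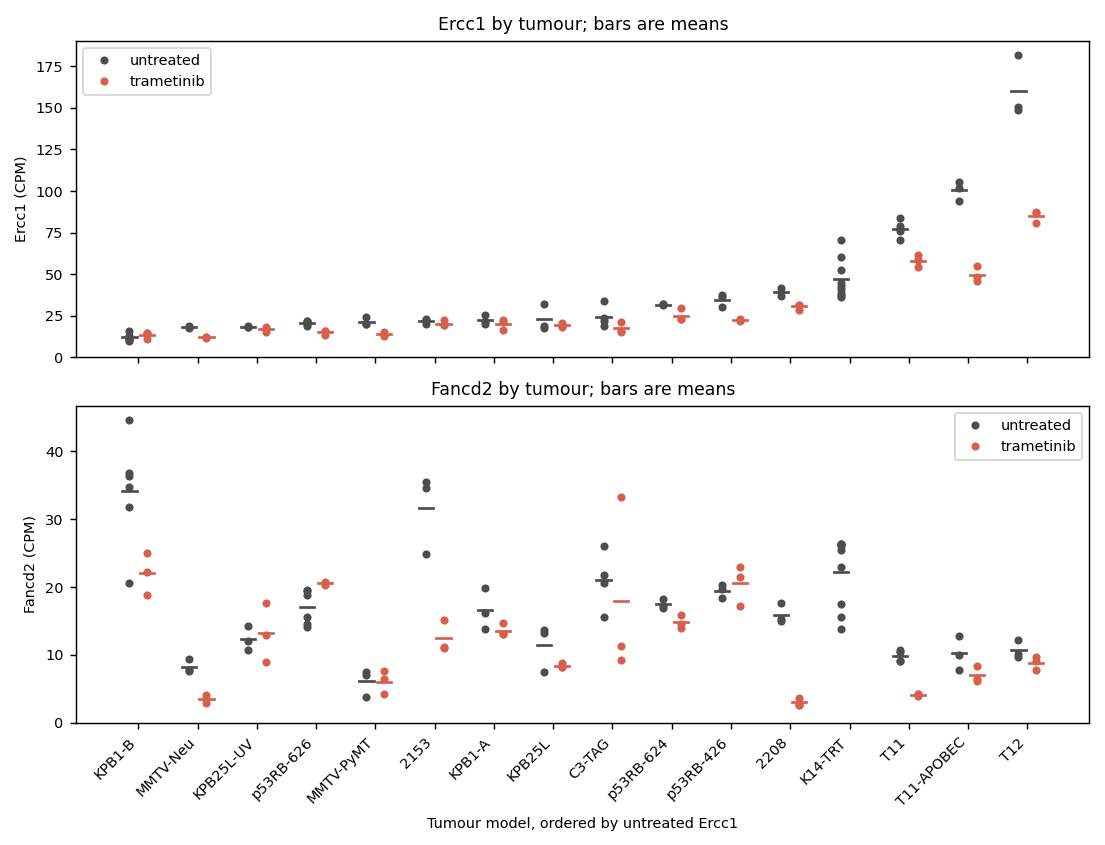
Ercc1 (top) and Fancd2 (bottom) in CPM in each untreated and trametinib-treated tumour of 16 models, ordered by untreated Ercc1; bars are means, and K14-TRT had no trametinib tumour. For Ercc1 the 3 models at the right stand above the rest, and in T11-APOBEC and T12 the treated tumours are lower, while for Fancd2 the largest falls are in 2208, 2153, MMTV-Neu and T11.

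Erlotinib moved fewer of these genes. In the same 16 models (48 against 54 tumours, the untreated ones shared with the other comparisons), 10 of the 34 genes fell and 0 rose, where 5.25% of 17954 genes fell and 4.73% rose. DESeq2 also called 10 lower and 0 higher, and at an unadjusted p under 0.05 edgeR had 19 lower and 0 higher. The median log2 change was -0.16. The 10 were Xrcc2, Rad54l, Fanca, Fanci, Brip1, Mre11a, Exo1, Topbp1, Msh6 and Polq. Rad54l, a motor protein of strand exchange, had 0.919, 17.8 and 51.3 CPM with erlotinib and 6.39, 20.3 and 57.8 without (-0.35, SE 0.081, edgeR adjusted p = 0.00336, lower in 11 of 16 models). Mre11a, the nuclease of the break-sensing complex, had 18.2, 37.8 and 72.5 against 18.7, 41.1 and 82.2 (-0.19, SE 0.051, edgeR adjusted p = 0.0108, lower in 11 of 16). Fanca had 1.90, 19.8 and 230.5 against 7.67, 24.2 and 141 (-0.32, SE 0.089, edgeR adjusted p = 0.0128, lower in 10 of 16). The ranges of treated and untreated tumours overlapped for each of them. Polq had a change of -0.32 (SE 0.092, edgeR adjusted p = 0.0176).

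The other genes followed in every comparison did not pass: Brca2 -0.16 (edgeR adjusted p = 0.261), Fancd2 -0.22 (0.125), Chek1 -0.20 (0.115), Atm -0.15 (0.318) and Parp1 -0.10 (0.158). Ercc1 had -0.04 (edgeR adjusted p = 0.641). Of the 78 further repair genes 14 fell and 1 rose, among them Apex1, the nuclease of base excision repair (-0.30), and Helq, a helicase (-0.18). Of the 30 proliferation genes 28 fell, with Mki67 at -0.47 (SE 0.131), while Brca1 (-0.22) and Cdkn1a (-0.06) did not pass.

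The count of 10 rested on few models. It was 1 without KPB1-B, 4 without MMTV-Neu and 6 without 2208. With adjacent library numbers (11 models), with the proliferation list in the fit or with 1 difference per model it was 0.

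Within models, the change differed for 31 of the 34 genes, where 77.5% of all genes did. MMTV-Neu had 27 genes lower and 1 higher (22.0% and 21.7% of all genes), and KPB1-B 26 and 1 (14.1% and 14.8%). In MMTV-Neu, Fanci fell from 10.1, 10.9 and 12.9 CPM to 0.772, 1.16 and 1.19 (-3.42, SE 0.319, edgeR adjusted p = 1.08e-19) and Bard1 from 4.48, 5.66 and 6.64 to 0.294, 0.637 and 1.24 (-2.91, SE 0.308, edgeR adjusted p = 4.37e-16). Mki67 fell there by 4.25 on the log2 scale. Epcam in MMTV-Neu was at 65.9, 504 and 1070 CPM with erlotinib and at 1665, 1697 and 1886 without. The part of epithelial content in these falls was not tested. In KPB1-B, Brip1, the helicase that links Brca1 to interstrand link repair, had a lowest, median and highest value of 11.7, 26.0 and 34.6 CPM without and 6.91, 8.49 and 11.4 with erlotinib (-1.49, SE 0.242, edgeR adjusted p = 2.75e-07). The lowest untreated value belonged to the tumour that stood apart, and without it the counts in KPB1-B were again 26 and 1. Rbbp8 in MMTV-Neu (0.58) and Fancc in KPB1-B (0.56) were the 2 that rose. In 2208, 4 genes were lower (2.08% of all genes lower, 2.78% higher), in MMTV-PyMT 6 (15.0% and 13.6%) and in C3-TAG 3 (4.73% and 5.31%), and in 2153 none was called (0.927% and 2.62%). In T11, T11-APOBEC, T12 and the 3 p53RB models none was called either, with 0.00760% to 1.05% of all genes lower and 0.00760% to 0.422% higher.

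Trametinib and erlotinib were then compared with each other in the 22 models given both (65 against 66 tumours). With trametinib, 17 of the 34 genes were lower and 0 higher, where 13.2% of 16778 genes were lower and 13.3% higher; DESeq2 called 18 lower and 0 higher, and at an unadjusted p under 0.05 edgeR had 22 lower and 0 higher. The median log2 difference was -0.16. Ercc1 had 11.2, 20.7 and 92.7 CPM with trametinib and 9.82, 24.0 and 212 with erlotinib, and was lower in 17 of 22 models (-0.32, SE 0.042, edgeR adjusted p = 1.85e-09). Msh6, which recognises mispaired bases, had 25.8, 59.3 and 140.3 against 19.3, 67.05 and 165 (-0.21, SE 0.047, edgeR adjusted p = 0.000302, lower in 15 of 22). Fancm, the helicase that brings the core complex to DNA, had 3.37, 12.3 and 28.0 against 5.30, 14.9 and 43.1 (-0.28, SE 0.067, edgeR adjusted p = 0.000799, lower in 16 of 22). All ranges overlapped.

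Fancd2 (-0.25), Chek1 (-0.26), Parp1 (-0.16) and Polq (-0.26) passed as well, and Brca2 (-0.16) and Atm (-0.09) did not. Of the 78 further repair genes 29 were lower and 3 higher, with Dna2 at -0.45 and Ercc5, another excision nuclease, at 0.12; Brca1 was at -0.30. Mki67 (-0.21) did not pass (edgeR adjusted p = 0.0910), while 11 of 30 proliferation genes were lower. With the proliferation list in the fit 6 of the 34 genes were lower, and with 1 difference per model 1 was.

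Carboplatin, which links DNA strands, was given together with paclitaxel, and 10 genes moved in the same 16 models (48 against 54 tumours). Fancc and Fancg, 2 core subunits of the Fanconi anaemia pathway, rose, and 8 genes fell, where 15.5% of 18401 genes rose and 11.2% fell. The 8 were Xrcc2, Fancb, Nbn, Rbbp8, Topbp1, Chek1, Msh6 and Parp1. The median log2 change was -0.13, against 0.01 over all genes, and DESeq2 called 2 higher and 11 lower.

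Fancc had 4.69, 10.7 and 26.1 CPM with chemotherapy and 3.72, 9.24 and 16.8 without, and was higher in 12 of 16 models (0.20, SE 0.051, edgeR adjusted p = 0.00187). Fancg had 6.42, 14.0 and 30.6 against 6.31, 12.3 and 33.0 (0.14, SE 0.053, edgeR adjusted p = 0.0397, higher in 12 of 16). Chek1 had 5.57, 16.2 and 45.2 against 7.34, 20.6 and 46.2, and was lower in 14 of 16 (-0.36, SE 0.083, edgeR adjusted p = 0.000652). Treated and untreated tumours overlapped widely for these 3 genes. Fancb had 2.31, 5.26 and 11.5 against 2.97, 6.49 and 11.9 (-0.27, SE 0.066, edgeR adjusted p = 0.00165, lower in 13 of 16). Msh6 had 22.5, 79.1 and 153 against 20.6, 85.8 and 182 (-0.22, SE 0.059, edgeR adjusted p = 0.00403, lower in 11 of 16). Parp1 was at -0.16 (SE 0.052, edgeR adjusted p = 0.0139), and Brca2 (-0.13), Fancd2 (0.04), Atm (-0.17) and Polq (-0.14) did not pass.

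Targets of p53 moved more than the 34 genes did: 15 of 18 rose and 0 fell, with a median of 0.51. Cdkn1a had 26.7, 142 and 880 CPM with chemotherapy and 16.1, 49.3 and 165 without, and was higher in 14 of 16 models (1.46, SE 0.127, edgeR adjusted p = 5.34e-15). Of the 78 further repair genes 5 rose and 12 fell. Mgmt, which removes alkyl groups from guanine, rose in 15 of 16 models (1.25, SE 0.182, edgeR adjusted p = 4.09e-07), Dna2 fell by 0.36 on the log2 scale, and Brca1 had a change of 0.03 (edgeR adjusted p = 0.836). Mki67 fell by 0.39 (SE 0.088) on the same scale, and 4 of 30 proliferation genes fell (median -0.09). Of the markers of T and NK cells 5 of 8 rose (median 0.80). Of those of leukocytes 3 of 5 rose (0.58), of B and plasma cells 3 of 3 (0.68) and of macrophages 4 of 6 (0.48). Of fibroblast markers 2 of 6 rose (0.38) and of endothelial ones 2 of 5 (0.24). In these lists 0 fell. Of 10 epithelial markers 1 fell and 0 rose (-0.23). The part of these cell types in the repair genes was not tested.

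With adjacent library numbers (7 models) 1 gene was lower and 0 higher, and with 1 difference per model none was called. All chemotherapy tumours titled KPB25L-UV carry library names of KPB25L, so the model of that group is in doubt. The 8 lower genes became 3 without KPB1-B, 4 without 2153, 4 without C3-TAG, 5 without p53RB-624 and 17 without MMTV-Neu, and the 2 higher ones became 1 without each of 2153, 2208, KPB1-A, KPB25L-UV, MMTV-Neu and p53RB-426.

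Some models moved in opposite directions with chemotherapy. The change differed between models for 25 of the 34 genes, a share near the 70.2% of all genes, so this count says nothing particular about repair genes. In C3-TAG 23 genes were lower and 2 higher (20.0% and 18.0% of all genes), in KPB1-B 11 and 0 (9.89% and 9.43%), and in 2153 9 and 4 (10.2% and 13.0%). In MMTV-Neu 12 were higher and 0 lower (3.62% and 1.36% of all genes), with a median of 0.49. KPB25L had 3 higher and 0 lower, below the 10.9% of all genes that were higher (9.06% were lower). T11 had 3 higher and 2 lower (8.21% and 7.19%). None was called in 2208, T12, p53RB-426, p53RB-624 and p53RB-626. In those models 0.0114% to 0.851% of all genes were higher and 0.00380% to 1.05% lower.

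In C3-TAG, Brca2 fell from 26.6, 37.1, 52.9 and 58.2 CPM to 16.75, 17.8 and 19.1 (-1.35, SE 0.276, edgeR adjusted p = 2.07e-05), and Chek1 from 21.7, 28.5, 35.5 and 36.7 to 11.2, 11.6 and 16.0 (-1.31, SE 0.267, edgeR adjusted p = 2.07e-05). Ercc1 rose there from 18.6, 22.1, 23.9 and 33.7 to 39.5, 44.8 and 45.3 (0.75, SE 0.152, edgeR adjusted p = 2.15e-05). No treated tumour overlapped with the untreated ones for these 3 genes. Epcam in C3-TAG was at 5.86, 596 and 673 CPM with chemotherapy and at 846 to 1695 in the 4 untreated tumours. The part of epithelial content in these changes was not tested. In MMTV-Neu, Rad54l rose from 6.39, 7.24 and 12.6 to 22.5, 24.2 and 24.4 (1.40, SE 0.243, edgeR adjusted p = 7.17e-06), and Fanci from 10.1, 10.9 and 12.9 to 23.7, 24.6 and 28.8 (1.16, SE 0.266, edgeR adjusted p = 0.00166). Polq rose there from 5.11, 7.56 and 7.76 to 13.4, 14.1 and 16.1 (1.06, SE 0.273, edgeR adjusted p = 0.00674). In these MMTV-Neu genes the groups did not overlap either.

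Mki67 changed by -1.50 in C3-TAG and by 0.61 in MMTV-Neu, where it did not pass (edgeR adjusted p = 0.289), while Cdkn1a rose in both (2.29 and 2.48). In MMTV-Neu the proliferation list was 0.82 higher with chemotherapy and the difference in C3-TAG was -0.32, on the log2 scale. Its part in the difference between these models was not tested, nor was that of the lower Epcam in the treated C3-TAG tumours. The difference of the changes, MMTV-Neu minus C3-TAG, a pair chosen after its values were seen, was called above 0 for 26 genes and below 0 for 0 (edgeR adjusted p under 0.05), where 22.0% of all genes were called in either direction. For Brca2 it was 2.16 (SE 0.456, edgeR adjusted p = 0.000501).

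Anti-PD1 + anti-CTLA4 moved few of the 34 genes. In 12 models (36 against 41 tumours) Fancc and Fancg rose and 0 fell, where 7.36% of 18371 genes rose and 6.22% fell. At an unadjusted p under 0.05 edgeR had 4 higher and 2 lower, and DESeq2 called 2 higher and 0 lower. The median log2 change was 0.00. Fancc had 6.001, 12.9 and 20.7 CPM with the antibodies and 3.72, 10.5 and 16.8 without (0.18, SE 0.044, edgeR adjusted p = 0.00389, higher in 10 of 12 models). Fancg had 9.83, 17.5 and 34.5 against 6.45, 14.6 and 33.0 (0.25, SE 0.065, edgeR adjusted p = 0.00669, higher in 8 of 12). Both pairs of ranges overlapped. None of the genes followed in every comparison passed: Brca2 -0.05, Fancd2 0.17, Chek1 -0.13, Atm -0.03, Parp1 -0.003 and Polq -0.03, the smallest edgeR adjusted p being 0.0733 for Fancd2.

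Among the 78 further repair genes 3 rose and 3 fell, with Lig4, the ligase of end joining, at -0.25 and Rpa1, which coats single strands, at 0.19, while Brca1 (0.08), Mki67 (-0.12) and Cdkn1a (-0.01) did not pass. In the same comparison 3 of 8 T and NK cell markers rose (median 0.47) and all 8 skeletal muscle markers fell (median -2.96); their part in the 2 Fanconi anaemia genes was not tested. Without the tumours highest in muscle the count was again 2. With adjacent library numbers (3 models) or 1 difference per model it was 0. It was 4 without KPB1-B, 3 without the KPB1-B tumour that stood apart and 1 without T12, and without MMTV-PyMT 3 genes were lower.

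The change differed between models for 18 of the 34 genes, a share near the 54.7% of all genes. T12 had 5 genes higher and 2 lower (8.89% and 8.11% of all genes). There Fancg rose from 6.45, 9.05 and 9.70 CPM to 17.8, 19.7 and 19.9 (1.15, SE 0.188, edgeR adjusted p = 5.26e-07), and Ercc1 fell from 148.9, 150.3 and 181.7 to 114.3, 117.2 and 119.2 (-0.50, SE 0.163, edgeR adjusted p = 0.0193). In p53RB-626, with 2 higher and 0 lower (1.85% and 1.82% of all genes), Mre11a had 43.9 to 53.7 CPM, median 45.6, in 6 untreated tumours and 70.1, 71.5 and 93.9 with the antibodies (0.71, SE 0.131, edgeR adjusted p = 6.5e-05). p53RB-426 also had 2 higher and 0 lower (4.00% and 2.97%), Fancc (0.47) and Fancg (0.58).

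Set against chemotherapy in 16 models (48 against 48 tumours), the antibodies left 3 genes higher and 0 lower, where 9.43% of 18705 genes were higher and 11.6% lower; at an unadjusted p under 0.05 edgeR had 7 higher and 0 lower, and DESeq2 called 2 higher and 0 lower. The share of the 34 genes that was higher was near that of all genes. Their median log2 difference was 0.07. Mre11a had 24.4, 47.9 and 182 CPM against 21.9, 41.9 and 167 (0.21, SE 0.048, edgeR adjusted p = 0.000881, higher in 13 of 16 models). Rad51c, a recombinase cofactor, had 2.87, 8.20 and 29.9 against 2.96, 7.58 and 17.0 (0.18, SE 0.057, edgeR adjusted p = 0.0134, higher in 13 of 16), and Nbn was at 0.13 (edgeR adjusted p = 0.0462). The ranges overlapped for all 3. Brca2 (0.05), Fancd2 (0.10), Chek1 (0.10), Atm (-0.03), Parp1 (0.12) and Polq (-0.02) did not pass. Mgmt (-1.24), Polk, a bypass polymerase (-0.30), and Cdkn1a (-1.19) were lower with the antibodies, Mki67 was higher (0.24), and Brca1 (0.05) did not pass. Of 30 proliferation genes 13 were higher and 0 lower (median 0.17). All 8 skeletal muscle markers were lower (median -2.10), as were 4 of 6 macrophage (-0.50) and 4 of 6 fibroblast markers (-0.37), with 0 higher. The part of these in the repair genes was not tested. With adjacent library numbers (5 models) or 1 difference per model 0 of the 34 genes were called.

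The labels give a median survival time for each model and treatment, and its ratio with chemotherapy over untreated ran from 0.92 in E0771 (23 against 25 days) to 4.64 in KPB1-B (65 against 14 days) over 16 models. The untreated level of each gene was set against this ratio over the model means. Of the 34 genes 0 were called after adjustment over 24741 genes, where 0.0485% were (12 genes). At an unadjusted p under 0.05 there was 1 of 34 (2.94%), against 19.7% of all genes. That share of repair genes lay below the background.

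That gene was Ercc1. Its Spearman's rho with the ratio was -0.50 (permutation p = 0.0489, adjusted p = 0.251, 16 models) and its Pearson's r -0.53 (permutation p = 0.0331, adjusted p = 0.211). Models that share a name, such as KPB1-A and KPB1-B, entered these tests as separate points. KPB1-B had the lowest Ercc1 and the highest ratio, and T12 the highest Ercc1 and a ratio of 1. Without the 2 models farthest in survival ratio, KPB1-A and KPB1-B, r was -0.42 (permutation p = 0.138) and rho -0.41 (permutation p = 0.148), so over these 14 models neither p was under 0.05. Among the 9 models with high Epcam rho was -0.20 (exact permutation p = 0.613), and among the 7 with low Epcam -0.02 (exact permutation p = 0.989). With so few models in each cluster, these tests cannot tell whether the relation held within either.

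**Figure D5:**
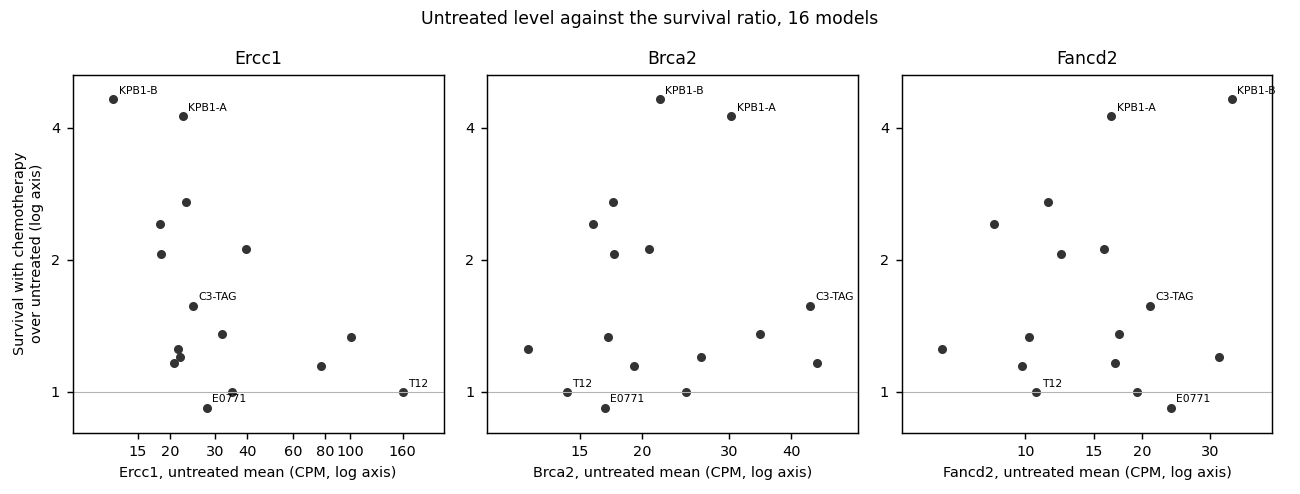
Median survival with chemotherapy over untreated against the untreated mean level of Ercc1, Brca2 and Fancd2 in 16 models, both axes logarithmic. KPB1-A and KPB1-B stand at ratios of 4.25 and 4.64, far above the other models, and Ercc1 is lowest in KPB1-B and highest in T12.

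Over the 34 genes 18 had a negative and 16 a positive rho, with a median of -0.03, against 0.02 over all genes. With models that share a name averaged to 1 point (11 points), 25 were negative and 8 positive, and 0 passed adjustment. There 5.88% of the 34 reached an unadjusted p under 0.05 (permutation test), against 13.4% of all genes. Without E0771, which had 1 untreated tumour, 0 of all genes passed over 15 models. Without KPB1-A and KPB1-B 28 were negative, with a median of -0.27 against 0.01 over all genes, and 5.88% of the 34 reached an unadjusted p under 0.05 against 14.8% of all genes. Without those models the mean level of the proliferation list had a rho of -0.39 and an r of -0.60 with the ratio, over 14 models. Over all 16 models its rho was -0.13 and its r -0.17. Its rho was -0.02 among the 9 models with high Epcam and 0.0 among the 7 with low Epcam. With proliferation taken out of the level by regression, 6 genes (17.6%, against 17.9% of all genes) reached an unadjusted p under 0.05 and none passed adjustment (smallest adjusted p = 0.0633, permutation test, for Rad54b). The change of each gene with chemotherapy was set against the ratio in the same way: 0 of 34 passed, where 0% of all genes did, and 1 reached an unadjusted p under 0.05 (Atm, rho -0.50, permutation p = 0.0497, adjusted p = 0.536), against 9.25% of all genes. Pearson's r for Atm was -0.31 (permutation p = 0.248), and without KPB1-A and KPB1-B rho was -0.43 (permutation p = 0.124).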

How the data were processed

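Polyadenylated RNA was sequenced with a TruSeq library kit, per the labels' protocols. STAR, SAMtools, Picard and Salmon were used with mm10, per the submitters' processing notes; no versions are stated there. Estimated counts in the deposited table (8.35% of values not whole) were rounded. The authors' upper-quartile scaled table, a signal table, served as an alternative. Counts were tested with edgeR 4.0.16 (R 4.3.3) quasi-likelihood fits with TMM scaling, filterByExpr, model as a factor and Benjamini-Hochberg adjustment over all genes tested. limma 3.58.1 and DESeq2 1.42.0 were alternatives, and the fits were tested on simulated data. Model means were set against the survival ratio with 100000 permutations, or all of them under 10 models. Tumours were grouped by model and treatment in their titles. The 3 chemotherapy tumours titled KPB25L-UV, which are that whole group, carry library names of KPB25L and were used by title. Fits with a proliferation covariate, adjacent library numbers, 1 difference per model, other scalings and left-out tumours or models were tried. Full values are given for the 3 called genes with the smallest p in each direction and for Brca2, Fancd2, Chek1, Atm, Parp1 and Polq; of the 78 further repair genes the 2 called with the smallest p, Brca1, Mki67 and Cdkn1a; for single models, the 2 with the most genes called per treatment. Others were named after their values were seen. The genes, lists and tests were chosen with earlier results of these data known.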

Additional observations from a re-analysis of the deposited data

Results flagged for a closer look

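In groups of 4 to 10 tumours, 5 of 170 checks of a gene in a group (2.94%) found a tumour far from the rest, against about 1 in 20 that chance gives. All 5 were the same untreated KPB1-B tumour, among 6. It had the lowest Rad51c at 5.03 CPM (the next was 12.4) and the lowest Chek2 at 15.7 (next 22.2). It had the highest Xrcc2 at 11.9 (next 7.18), Mre11a at 64.8 (next 40.5) and Parp1 at 256 (next 190.0).

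Changes that differ between models were found for 34 of the 34 genes with trametinib, 31 with erlotinib, 25 with carboplatin and paclitaxel and 18 with the antibodies, beside 82.3%, 77.5%, 70.2% and 54.7% of all genes. With chemotherapy and with the antibodies the share was near that of all genes. Between MMTV-Neu and C3-TAG the change with chemotherapy was called higher in MMTV-Neu for 26 genes and lower for 0 (edgeR adjusted p under 0.05); the pair was chosen after its values were seen.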

How the results depend on the processing

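Of the counts of genes higher or lower, 247 values under alternatives stayed within 1.5 times and 58 did not. With the proliferation list in the fit, trametinib had 2 higher and 1 lower, erlotinib 0 lower, the antibodies 3 lower, trametinib against erlotinib 6 lower, and antibodies against chemotherapy 1 higher and 3 lower; with trametinib the log2 changes of Brca2 (0.0588), Fancd2 (0.0782) and Chek1 (0.0348) then changed sign. With adjacent library numbers trametinib had 2 higher, erlotinib 0 lower, chemotherapy 0 higher and 1 lower, the antibodies 0 higher, and antibodies against chemotherapy 0 higher. With the range of library numbers as a factor chemotherapy had 0 higher and 2 lower and the antibodies 0 higher. With 1 difference per model erlotinib had 0 lower, chemotherapy 0 and 0, the antibodies 0 higher, trametinib against erlotinib 1 lower, and antibodies against chemotherapy 0 higher. With no filter chemotherapy had 1 higher and 3 lower. With limma on the upper-quartile table erlotinib had 21 lower, chemotherapy 4 higher and 2 lower, and antibodies against chemotherapy 1 higher. The cause of these shifts was not tested. The fits with adjacent library numbers and with 1 difference per model use fewer tumours or values. The fit with the range of library numbers as a factor uses all tumours of the 2 groups. Leaving out in turn the tumour at each place within its group, in order of library number, which is only a name, gave, for trametinib, 24 to 27 lower; for erlotinib, 0 to 5 lower; for chemotherapy, 1 higher and 1 to 10 lower; for the antibodies, 0 to 2 higher; for trametinib against erlotinib, 5 to 14 lower; and for antibodies against chemotherapy, 1 to 2 higher. Untreated models differed for 33 to 34 genes, and survival gave 0. Leaving out each model gave 27 to 28 lower with trametinib, 1 to 13 with erlotinib, 1 to 3 higher and 3 to 17 lower with chemotherapy, and 1 to 4 higher and 0 to 3 lower with the antibodies. No paired analysis was possible because each library number stands for 1 tumour and pairs no tumours across groups; the fit with 1 difference per model sets group means of a model against each other.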

Other observations

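Of the genes near Ercc1, 2 shared its high level in T11, T11-APOBEC and T12. Within 500000 bases on each side 42 other genes were measured, and 2 of them were above all 13 other models in all 3: Dmpk (15.3-fold, 16.6-fold and 17.8-fold over the median of the others) and Dmwd (1.90-fold, 1.95-fold and 1.84-fold). The median fold of the 42 genes was 0.97, 1.06 and 1.24. Dmpk encodes a kinase named for myotonic dystrophy, and lies 250957 bases from Ercc1.

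Fanca was high in E0771 in every treatment. Trametinib tumours of that model had 225, 236 and 250.5 CPM, erlotinib tumours 186, 230.1 and 230.5, chemotherapy tumours 158, 186 and 193, and antibody tumours 112, 165 and 177.5. The single untreated tumour had 141. No tumour of another model in these treatments passed 84.2.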
